A study of Mus musculus with 24 samples.

Results

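The response of retroperitoneal adipose tissue to a high-fat diet was examined in the sons of vitamin D-replete mothers. Of the 24 RNA-seq libraries of the study, the 6 labelled CTRL, male and either LF or HF were compared, 3 on each diet, and all genes were considered. The mice were C57BL/6J in the labels and C57BL/6JRJ in the study's methods. Their mothers had eaten AIN-93G diet with 1.0 IU of vitamin D3 per g (CTRL) for 8 weeks before mating, and kept to AIN-93G until weaning. From 6 weeks of age the CTRL LF sons ate AIN-93M, the maintenance form of that purified diet, and the CTRL HF sons a purified diet with 45% of its energy from fat. Both groups ate for 8 weeks, and tissue was taken after an overnight fast. The column names number the CTRL LF mice 2293, 2296 and 2287 and the CTRL HF mice 2128, 2127 and 2131. No source used here gives the litter, so p-values measure the spread between these mice, some of which may be siblings.

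Depth ranged from 14471886 to 17330046 reads assigned to genes, and the 10 most abundant genes took 14.9% to 27.5% of them. All 12 core markers of the fat cell, such as Adipoq, Plin1 and Lep, passed the filter on low values, which was applied to the 6 libraries together. Their sum was at least 981597 normalized reads in each CTRL LF mouse and at least 659256 in each CTRL HF mouse. Kidney markers summed to at most 20.7 normalized reads, in CTRL HF mouse 2131. Adrenal markers summed to 264 in that HF mouse and to between 50.1 and 100 in the other mice. Testis and epididymis markers summed to at most 1.76, with 7 of these 8 genes at 0 in all 6 libraries. Skeletal muscle markers summed to 68449 normalized reads in CTRL LF mouse 2287 and to between 366 and 3326 in the other 5. The column names of that mouse and of CTRL HF mouse 2131 hold the word renal, which no source used here explains.

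White adipose tissue stores triglyceride in large fat cells held in a mesh of collagen, which fibroblast-like stromal cells and the fat cells themselves produce. As a depot grows, this matrix is rebuilt, with new collagen, crosslinking enzymes and proteases. During a fast the fat cell turns from making fat to releasing it, under glucocorticoids, catecholamines and falling insulin, and burns part of the fatty acids itself. The mRNA levels of the enzymes involved are commonly read as a record of the tissue's state, but they do not measure enzyme activity.

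The whole transcriptome was compared first. Of 15583 genes with enough reads, 109 rose and 73 fell on the HF diet at a Benjamini-Hochberg adjusted p under 0.05 in limma, together 1.17% of the genes tested. A stricter rule, an adjusted p under 0.01 with a fold change above 1.5 or below 0.66, called 2 genes higher (0.0128%) and 7 lower (0.0449%), together 0.0578% of those tested. These cut-offs follow the study, which reported many more genes for this comparison with DESeq2. The counts here hold for the limma fit. The median log2 fold change over all tested genes was -0.02, and 47.9% of them were above 0. The genes that rose did so by 0.83 to 4.59 on the log2 scale, with a median of 1.45, and those that fell had a median of -1.56. All 182 separated the 2 diets completely, with no overlap between the groups, as did 24.7% of all tested genes. Symbols were available for 170 of the 182, 11 were loci added by the authors' assembly and 1 had a name turned into a date. In bulk tissue, fewer cells of a type and less RNA per cell cannot be told apart, and this holds for every gene below.

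**Figure D1:**
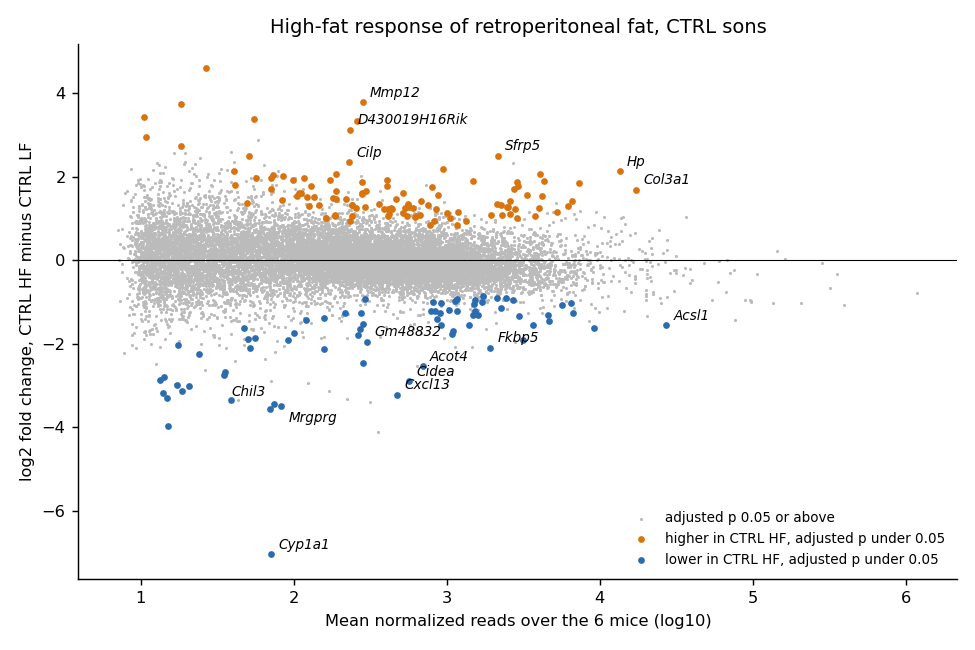
Each point is 1 of 15583 genes, placed by its mean normalized reads over the 6 mice (x axis, log10) and its log2 fold change, CTRL HF minus CTRL LF (y axis). Orange points (109) were higher and blue points (73) lower in CTRL HF at an adjusted p under 0.05, and the genes called by the stricter rule are named with a few others.

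The number of genes depended on single mice. Without CTRL LF mouse 2293 only 11 genes passed an adjusted p of 0.05, and without CTRL HF mouse 2128 only 13. Without CTRL LF mouse 2296, by contrast, 276 passed. The 67 named genes that passed kept their direction in every one of these fits. That outcome was fixed in advance, because all 182 genes separated the 2 diets without overlap. The genes called by the stricter rule passed an adjusted p of 0.05 in all 6 fits without 1 mouse. Every other named gene failed in at least 1 of these fits, and many failed in most.

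Collagens formed the largest group of genes that rose together. Of 19 collagen genes tested, 11 rose and none fell, 17 were higher in every CTRL HF mouse than in any CTRL LF mouse, and the median log2 fold change was 1.27. Over all tested genes, 0.699% rose, and 13% had all 3 HF mice above all 3 LF mice. The count was 0 without CTRL HF mouse 2128, 1 without CTRL LF mouse 2293, 4 without CTRL HF mouse 2131 and 7 without CTRL LF mouse 2287, and the median was 1.19 and 1.14 in the first pair of these fits. The count was 5 in a fit over all 12 male libraries.

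The 3 chains of collagen VI, a beaded microfibril that surrounds fat cells, had the highest fold changes among the collagens. Col6a2 was at 1069, 2025 and 1674 normalized reads in CTRL LF and at 7807, 6313 and 5311 in CTRL HF. The lowest HF mouse was thus well above the highest LF mouse, and the log2 fold change was 2.06 ± 0.26 (SE, n = 3 per group, adjusted p = 0.0124 in limma). Col6a1, which lies next to it, went from 1298, 2528 and 1813 normalized reads to 7887, 6336 and 6147, a log2 fold change of 1.90 ± 0.25. Col6a3, the chain whose C-terminal fragment is released as endotrophin, went from 901, 1456 and 1417 to 4983, 3982 and 4464 (1.86 ± 0.22, adjusted p = 0.0104). It was significant in 5 of the 6 fits that each left out 1 mouse. The less typical collagen VI genes Col6a5 and Col6a6 did not pass the test, with log2 fold changes of -0.38 and 0.54.

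The fibrillar collagens of connective tissue followed. Col1a1 had 1269, 2097 and 1726 normalized reads in CTRL LF and 4871, 4111 and 5884 in CTRL HF, so that again no mouse of one group reached the other. Its log2 fold change was 1.56 ± 0.23 (adjusted p = 0.0193), and that of Col1a2, the partner chain in collagen I, was 1.42 ± 0.22. Col3a1, the most abundantly read of the collagens that rose, went from 6625, 10806 and 7407 to 29929, 22856 and 25627 normalized reads (1.68 ± 0.27, adjusted p = 0.0252). Col5a1 and Col5a2, which start collagen fibrils, rose by 1.27 and 1.21. Col15a1, Col16a1 and Col18a1, found at basement membranes and fibril surfaces, rose by 1.70, 1.66 and 1.32. The basement membrane collagens Col4a1 and Col4a2 were higher in every HF mouse, by 0.65 and 0.84, without passing the test.

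**Figure D2:**
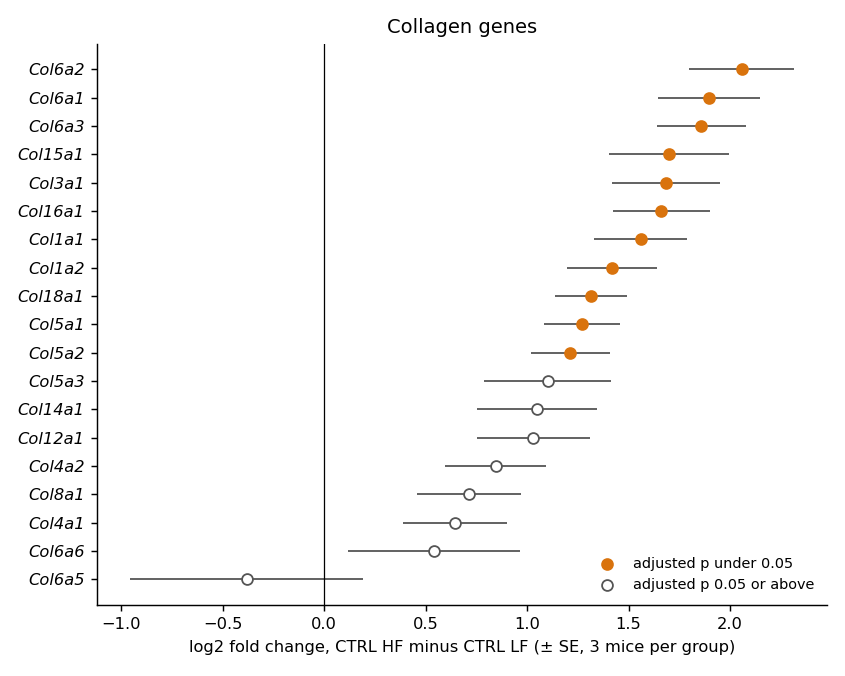
Log2 fold changes of the 19 collagen genes, CTRL HF minus CTRL LF, with the standard error (3 mice per group). Filled orange points passed an adjusted p of 0.05 (11 genes), open points did not, and only Col6a5 lies below 0.

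Proteins that assemble, crosslink or cut the matrix moved less evenly. Of 30 matrix remodelling genes tested, 7 rose and 1 fell, with a median log2 fold change of 0.72, where 0.699% of all tested genes rose and 0.468% fell. The count that rose was 1 without CTRL HF mouse 2128 or 2131 or CTRL LF mouse 2287 or 2293, and 2 in the fit over 12 males. Cilp, a secreted matrix protein best known from cartilage, was at 76.8, 87.2 and 61.2 normalized reads in CTRL LF and at 329, 421 and 400.5 in CTRL HF. It was 1 of the 2 genes called higher by the stricter rule, with a log2 fold change of 2.34 ± 0.22 (adjusted p = 0.00282), and passed in all 6 fits without 1 mouse. Fbn1, the fibrillin of elastic microfibrils, rose by 1.77 ± 0.30, Loxl2, a collagen crosslinking oxidase, by 1.35 ± 0.22 and Tnc, the matricellular protein tenascin C, by 1.28 ± 0.20. The aggrecanase Adamts5 rose by 1.27 and the small proteoglycan Bgn (biglycan) by 1.00. Mmp12, the elastase of macrophages, had a higher estimate, 3.78 ± 0.63, but its HF values ranged widely and it passed in 2 of the 6 fits without 1 mouse. Thbs2 (thrombospondin 2) went the other way, from 5629, 3457 and 3769 normalized reads in CTRL LF to 1280, 1741 and 2018 in CTRL HF (-1.34 ± 0.24, adjusted p = 0.0358).

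Several genes of collagen secretion also passed the test; these lie outside the rule used to choose names and were picked after their values were seen. Serpinh1, the chaperone that folds procollagen in the endoplasmic reticulum, went from 1784, 2256 and 2463 to 6353, 6824 and 5609 normalized reads, a log2 fold change of 1.54. Pcolce, which enhances the trimming of procollagen, and Mrc2, a receptor that takes up collagen fragments, rose by 1.56 and 1.45. The fibroblast surface genes Thy1 and Cd248 rose by 1.86 and 1.42.

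Markers of other cells of the vessel wall and stroma were read beside the collagens. Of all tested genes, 47.9% were higher and 0.699% rose. Smooth muscle and pericyte markers summed to between 3996 and 6174 normalized reads in CTRL LF and between 10254 and 14306 in CTRL HF, and 7 of 8 were higher, but none passed the test. Acta2, smooth muscle actin, came closest, at 389, 1546 and 919 normalized reads in LF against 3741, 6762 and 2800.0 in HF (2.33 ± 0.47, adjusted p = 0.0536). Stromal progenitor markers overlapped between the groups in sum, at 31569 to 41522 in LF and 33637 to 44076 in HF, and 1 of 15, Cd34, rose (1.08 ± 0.19). The part of these cells in the collagen result was not tested.

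Genes for secreted and acute-phase proteins were next. Hp, second in level only to Col3a1 among the named genes that rose, which encodes haptoglobin, the haemoglobin-binding protein that fat cells also make, was at 4219, 6544 and 4465 normalized reads in CTRL LF and 18263, 24284 and 23289 in CTRL HF. Its log2 fold change was 2.13 ± 0.25 (adjusted p = 0.0104). Lbp, the lipopolysaccharide binding protein, went from 527, 638 and 698 to 3032, 2418 and 1645 (1.89 ± 0.24, adjusted p = 0.0124), and Serpina3n, a protease inhibitor, rose by 1.07 ± 0.20. Cp, which encodes the copper oxidase ceruloplasmin and belongs to the same list, fell from 6120.0, 4320 and 6079 to 1787, 1741 and 2020 normalized reads (-1.56 ± 0.20, adjusted p = 0.0124). Of the 10 acute-phase genes tested, 3 rose and 1 fell, beside 0.699% and 0.468% of all tested genes. The median of the 10 was -0.40. That median was 0.07 without CTRL LF mouse 2296 and -0.06 with at least 50 reads. The count that rose was 0 without CTRL LF mouse 2293 and 1 without CTRL HF mouse 2128.

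Sfrp5 and Sfrp4, secreted inhibitors of Wnt signalling, rose, and most of the genes listed as following the growth of fat depots were higher. Sfrp5, a decoy for Wnt ligands that is made by enlarging fat cells, was at 363, 841 and 761 normalized reads in CTRL LF and 3239, 5278 and 2443 in CTRL HF, a log2 fold change of 2.49 ± 0.36 (adjusted p = 0.0192). Sfrp4, its relative, rose by 1.62 ± 0.23. These were the 2 genes that passed of 18 in the TGF-beta, BMP and Wnt list, beside 0.699% of all tested genes that rose. The median of that list was 0.43. Among the 7 markers of fat mass, 6 were higher and the median was 1.12, but Sfrp5 was the only one past the test. Of all tested genes, 47.9% were higher. In both lists the count that rose was 0 without CTRL HF mouse 2128, without CTRL LF mouse 2293 and in the fit over 12 males. Lep, which encodes leptin, had a log2 fold change of 0.96 ± 0.32 (adjusted p = 0.168), and all HF mice lay above all LF mice. Npr3, the receptor that clears natriuretic peptides, stood at 1.16 ± 0.31 (adjusted p = 0.106).

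Receptors and membrane proteins added to the genes that rose. Aplnr, the apelin receptor of endothelium, went from 145, 174 and 181 to 814, 624 and 497 normalized reads (1.92 ± 0.22, adjusted p = 0.0101), the only gene of 18 in the endothelial list to pass. Grb14, an adaptor that binds and inhibits the insulin receptor, was at 41.5, 44.0 and 56.8 in LF and at 185, 180.0 and 190.3 in HF (1.96 ± 0.23, adjusted p = 0.0101). Igfbp3, which binds IGF1 in the circulation, fell by 1.21 on the log2 scale (adjusted p = 0.032). Cavin3, a coat protein of caveolae, the membrane pits of the fat cell, rose by 1.34 ± 0.21. Sncg, gamma-synuclein, a protein of nerve and fat cells, rose by 1.84 ± 0.34. Folr2, a marker of tissue macrophages, and Gbp2, an interferon-induced GTPase, rose by 1.12 and 0.93 and were the only genes of their lists (14 and 18 tested) to do so. Beside these counts, 0.699% of all tested genes rose and 0.468% fell.

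The genes with the highest fold increase included several of little known function. D430019H16Rik, an uncharacterised protein-coding gene of chromosome 12 and the other gene called higher by the stricter rule, went from 30.5, 60.8 and 52.5 to 572, 350.2 and 340.2 normalized reads (3.12 ± 0.31, adjusted p = 0.00404). The lncRNA 1700047G03Rik went from 20.7, 40.5 and 101 to 574, 488 and 324 (3.32 ± 0.48). Gm41144, Grid1 and Vsig8 had under 6 normalized reads in every LF mouse, so that their fold changes rest on few reads, 3 in all for Gm41144. Synpo2 and Hmcn2, an actin-binding protein and a matrix protein, also rose, by 1.30 and 2.18. They passed in 0 and 1 of the 6 fits without 1 mouse.

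**Figure D3:**
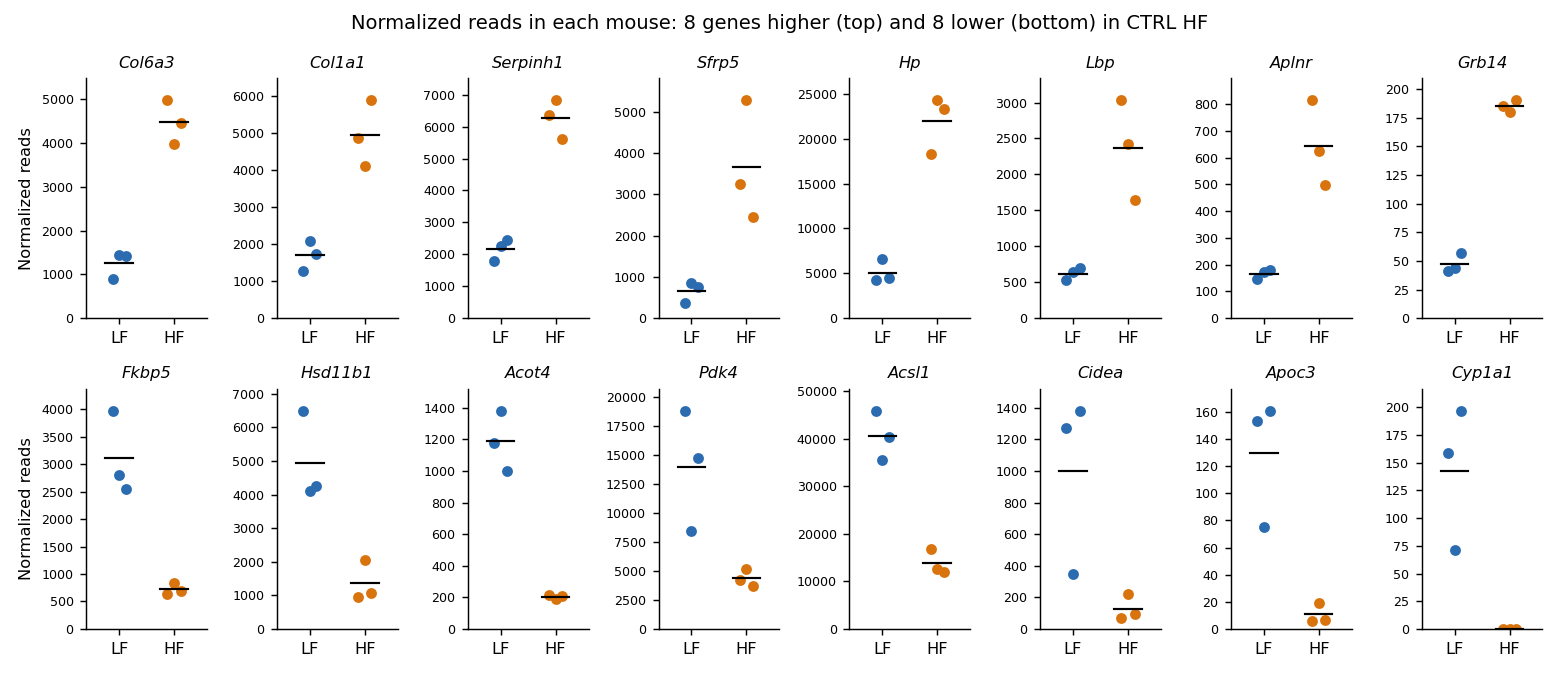
Normalized reads (y axis, linear, from 0) of 16 genes in each of the 3 CTRL LF (blue) and 3 CTRL HF (orange) mice, with the group mean as a black line. In all 16 genes the 2 groups do not overlap, and Cyp1a1 is at 0 in all 3 HF mice.

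Genes of glucocorticoid action were among those that fell. Fkbp5, a co-chaperone of the glucocorticoid receptor whose gene is a classical target of that receptor, was at 3973, 2802 and 2552 normalized reads in CTRL LF and 632, 831 and 695 in CTRL HF. No HF mouse came near the lowest LF mouse, the log2 fold change was -2.09 ± 0.21 (adjusted p = 0.00404), and the gene passed in all 6 fits without 1 mouse. Hsd11b1, which encodes the enzyme that regenerates active glucocorticoid inside the cell, went from 6493, 4104 and 4266 to 961, 2059 and 1057 (-1.92 ± 0.30, adjusted p = 0.0252). It passed in 3 of the 6 fits without 1 mouse, failing without CTRL LF mouse 2293 or CTRL HF mouse 2128 or 2131. Nr3c1, the glucocorticoid receptor itself, had a log2 fold change of 0.00 ± 0.20. Tsc22d3, another glucocorticoid-induced gene, was lower in every HF mouse but did not pass (-0.78 ± 0.22, adjusted p = 0.12). In the list of steroid hormone genes 2 of 11 fell and none rose, beside 0.468% of all tested genes that fell.

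Acot4, Acot3, Acsl1 and Pdk4, genes of acyl-CoA and fuel handling, fell. Of 24 fatty acid oxidation genes tested, Pdk4, which acts on pyruvate use, was the only one that passed, where 0.468% of all tested genes fell. Acot4, a peroxisomal thioesterase that frees dicarboxylic acids from coenzyme A, was at 1180.1, 1380.0 and 1001 normalized reads in CTRL LF and 214, 187.5 and 206 in CTRL HF. The log2 fold change was -2.54 ± 0.18 (adjusted p = 0.000498) and was significant whichever mouse was left out. Acot3, its neighbour, was at 24.4, 49.3 and 14.2 normalized reads in LF and had 3 reads in all in the 3 HF libraries, a ratio of 31.5 (95% Poisson interval 10.8 to 153, for counting error only). The 2 genes are similar in sequence, and only uniquely placed reads were counted. Acsl1, the main long-chain acyl-CoA synthetase of fat, went from 45851, 35493 and 40271 to 16865, 12643 and 12009 (-1.56 ± 0.28, adjusted p = 0.0335). Pdk4, the kinase that turns off pyruvate dehydrogenase during a fast, went from 18801, 8433 and 14702 to 4238, 5159 and 3704 (-1.62 ± 0.30, adjusted p = 0.0385). Acsl1 and Pdk4 each passed in 1 of the 6 fits without 1 mouse.

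Some enzymes of triglyceride assembly fell with them. Lpin1, the phosphatidate phosphatase lipin 1, went from 10332, 10706 and 7530 to 4031, 3695 and 3983 normalized reads (-1.27 ± 0.21, adjusted p = 0.0261). Gpat3, which adds the first acyl chain to glycerol phosphate, fell by 1.14 on the log2 scale. With Acsl1 these were the 3 of 26 genes of fatty acid uptake and esterification that passed, beside 0.468% of all tested genes that fell. None of the list rose, but 8 of the 26 were higher. The list median was -0.29, and -0.08 with quantile normalization. None of the 3 passed without CTRL HF mouse 2127, 2128 or 2131 or CTRL LF mouse 2293, and 1 gene of the list fell without CTRL LF mouse 2287, without both libraries named renal and in the fit over 12 males. Cidea, a droplet protein shared by fat and thermogenic cells, was at 1272, 350.5 and 1380.4 in LF and 72.0, 222 and 92.2 in HF (-2.89 ± 0.54, adjusted p = 0.0397). Apoc3 and Apoc4, apolipoproteins of triglyceride-rich particles, fell by 3.56 and 2.11 on the log2 scale. Apoc3 was at 154, 74.9 and 161 normalized reads in LF and at 6.15, 19.4 and 6.89 in HF.

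Other genes lower in CTRL HF had varied roles. Egln3, an oxygen-sensing prolyl hydroxylase, fell by 2.12 (adjusted p = 0.0339) and was the only one of 13 hypoxia genes to pass. Dnajb9, a chaperone of the endoplasmic reticulum, fell by 1.00, the only one of 14 genes of the unfolded protein response. Beside these counts, 0.468% of all tested genes fell. Stt3b, a subunit of the enzyme that adds sugars to new proteins, and Lrrc58 fell by 1.08 and 1.03. They passed in 1 and 0 of the 6 fits without 1 mouse. Gm48832 was called by the stricter rule, at 505, 497 and 435 normalized reads in LF and 137, 101 and 134 in HF (-1.95 ± 0.20, adjusted p = 0.00404). Cdkn1a, a cell cycle inhibitor, and Klb, the co-receptor of FGF21, which were chosen after their values were seen, fell by 1.78 and 1.31.

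Cyp1a1, a xenobiotic-metabolising cytochrome P450 and the standard target of the aryl hydrocarbon receptor, was the gene with the lowest fold change. It had 158, 71.3 and 197 normalized reads in the CTRL LF mice and no read in any CTRL HF library. Against a floor of 3 reads over the 3 HF libraries, it was at least 153-fold lower in HF (adjusted p = 0.000498), and it passed in all 6 fits without 1 mouse. No other gene of 13 in the xenobiotic list passed, where 0.468% of all tested genes fell. Cyp1b1, a second target of the receptor, was lower in every HF mouse, with a log2 fold change of -0.74 ± 0.18 (adjusted p = 0.0851). Ahrr and Tiparp, further targets, stood at 0.10 and -0.02. Cyp2e1, an abundant P450 of fat, stood at -1.44 ± 0.39 (adjusted p = 0.107), with the groups not overlapping.

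Promoter sequences are shown for 4 of the genes that fell, in which a searched motif was found. No motif of the glucocorticoid receptor was searched. The sequences are the 250 bases before a transcription start in RefSeq on GRCm38.p6, and 120 of the 182 genes were in that table. For Cyp1a1 and Acot4 the stretch shown lies inside the listed span of the gene (chr9:57687928-57703824 and chr12:84037254-84044723). The start used is thus not the first base of that span. The capitals in Cyp1a1 mark GCGTG, the core motif of the aryl hydrocarbon receptor, which starts 54 bases before the start used here. In Acsl1 they mark TCACNCCAC, the sterol response motif, here on the reverse strand and 76 bases before the second of 2 listed starts. In Acot4 and Fkbp5 they mark the E-box CACGTG, a motif searched after the results were seen.
Cyp1a1, chr9:57697363-57697612, plus strand: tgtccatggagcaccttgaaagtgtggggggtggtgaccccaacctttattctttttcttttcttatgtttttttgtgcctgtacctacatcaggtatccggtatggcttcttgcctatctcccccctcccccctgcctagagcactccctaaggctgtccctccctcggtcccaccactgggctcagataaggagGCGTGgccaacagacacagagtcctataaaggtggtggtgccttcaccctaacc
Acsl1, chr8:46490716-46490965, plus strand: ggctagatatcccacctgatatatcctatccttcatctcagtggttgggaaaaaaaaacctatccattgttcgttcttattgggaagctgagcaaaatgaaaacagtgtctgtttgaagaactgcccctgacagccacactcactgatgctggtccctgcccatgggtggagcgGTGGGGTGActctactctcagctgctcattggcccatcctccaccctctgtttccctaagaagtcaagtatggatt
Acot4, chr12:84038129-84038378, plus strand: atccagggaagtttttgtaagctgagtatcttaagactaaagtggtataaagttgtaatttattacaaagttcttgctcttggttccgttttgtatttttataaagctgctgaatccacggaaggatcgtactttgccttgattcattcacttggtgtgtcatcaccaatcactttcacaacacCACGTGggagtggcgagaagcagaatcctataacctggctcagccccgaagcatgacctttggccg
Fkbp5, chr17:28486150-28486399, minus strand: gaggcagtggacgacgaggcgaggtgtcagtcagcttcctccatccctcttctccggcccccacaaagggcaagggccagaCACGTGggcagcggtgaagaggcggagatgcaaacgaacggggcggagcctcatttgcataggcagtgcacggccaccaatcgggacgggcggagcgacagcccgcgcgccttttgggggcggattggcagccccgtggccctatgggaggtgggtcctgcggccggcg

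These matches are given only as a description, beside the share of all promoters that held each motif. On either strand, GCGTG was in 28.2% of 32851 promoters, in 24 of the 49 fallen genes found in the table and in 23 of the 71 risen ones. TCACNCCAC was in 1.05% of promoters and, among the genes that fell, only in that of Acsl1. CACGTG was in 6.02% of promoters, in 8 of the 49 fallen genes and in 3 of the 71 risen ones. Genes with several listed starts had more than 1 chance to match, and of all 27025 genes 30.9%, 1.22% and 6.86% held these motifs at any start.

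A few pairs of changed genes were neighbours on GRCm38.p6. Of 166 genes with a position, 6 pairs lay within 100 kb of each other, and 5 of these moved in the same direction. The same counts over all tested genes were not computed, so these are a description only. Acot4 (chr12:84037254-84044723) and Acot3 (chr12:84052144-84060400) are 7.42 kb apart and both fell. Fkbp5 (chr17:28398753-28486149) is 36.5 kb from the lncRNA E230001N04Rik (chr17:28522656-28525888), which fell from 41.5, 42.3 and 18.6 to 0.878, 4.31 and 4.31 normalized reads. Col3a1 and Col5a2 are 24.6 kb apart on chromosome 1, and Col6a2 and Col6a1 85.2 kb apart on chromosome 10, and all 4 rose. The pair that split was Fstl1, a secreted follistatin-like protein that rose by 1.24, and Lrrc58.

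The genes called lower by the stricter rule also included a chemokine, a chitinase-like protein and an orphan receptor. Cxcl13, the chemokine that draws B cells, was at 761, 910 and 883 normalized reads in CTRL LF and 72.0, 108 and 93.9 in CTRL HF (-3.22 ± 0.20, adjusted p = 0.000498). Chil3, a chitinase-like protein of alternatively activated macrophages, was at 121, 144 and 148 in LF and 12.3, 12.9 and 10.3 in HF (-3.43 ± 0.27, adjusted p = 0.00104). Mrgprg, an orphan receptor, was at 182, 109 and 167 in LF and 15.8, 12.9 and 9.47 in HF (-3.48 ± 0.32, adjusted p = 0.00282). Values within each group lay close together in these genes, and each passed in all 6 fits without 1 mouse.

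Beside them, all 9 B lymphocyte markers were lower, with a median of -1.47 and summed levels of 341 to 1609.8 normalized reads in LF and 142 to 630 in HF, which overlap, and none passed the test. Of 10 T lymphocyte markers, 9 were lower, with a median of -0.86, and none passed. Every HF mouse lay below every LF mouse in 2 of these 10, in 0 of the 9 and in 11.7% of all tested genes. Of all tested genes, 52.1% were lower. Mesothelial markers summed to 2035 to 4753 in LF and 2361 to 6875 in HF, with the highest sum in CTRL HF mouse 2131. The part of these cells in the result was not tested.

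Many metabolic lists had low medians without single genes that passed. Of 30 nuclear-encoded subunits of the respiratory chain, 29 were lower in HF, with a median log2 fold change of -0.45, but none passed, and only Sdha and Atp5c1 separated the groups completely. Of 17 genes of branched-chain amino acid breakdown 16 were lower, with a median of -0.56, and 10 had every HF mouse below every LF mouse, where 11.7% of all tested genes did, but none passed. The largest estimate was Hsd17b10 at -1.03 ± 0.27 (adjusted p = 0.0991). Citric acid cycle genes had a median of -0.39 (14 of 15 lower, none passed) and fatty acid oxidation genes of -0.49 (19 of 24 lower), with Pdk4 as the only one that passed. Over all tested genes, 52.1% were lower.

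The making of fatty acids from glucose followed the same pattern. De novo lipogenesis genes had a median of -0.58 with 15 of 19 lower and none past the test. Scd3, a stearoyl-CoA desaturase, came closest (-2.10 ± 0.44, adjusted p = 0.0566). Acacb stood at -1.15 ± 0.28 (adjusted p = 0.0851) and Fasn, the fatty acid synthase, at -0.80 ± 0.40. Pnpla3, a lipase induced by feeding, had a log2 fold change of 1.39 ± 0.44 and Scd2 one of 0.98 ± 0.35, both opposite in sign to the list. Thermogenic genes had the lowest median of the 40 process and cell lists, -0.66. Cidea was the only one of these 14 past the test, where 0.468% of all tested genes fell. Ucp1, the uncoupling protein of brown fat, stood at -0.52 ± 1.01. Core fat cell genes had a median of -0.28, with none of 12 past the test and Pparg, the master regulator of fat cell formation, at -0.74 ± 0.21 (adjusted p = 0.119).

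Proliferation and macrophage genes lay on the other side. Over all tested genes, 47.9% were higher, 13% had every HF mouse above every LF mouse and 0.699% rose. Of 26 cell cycle genes 24 were higher, with a median of 0.94 and 8 separating the groups completely, but none passed. Birc5, an inhibitor of apoptosis needed in mitosis, came closest, at 4.88, 16.7 and 14.2 normalized reads in LF and 86.1, 34.5 and 45.6 in HF (2.17 ± 0.51, adjusted p = 0.0775). Mki67, the usual proliferation marker, had a log2 fold change of 1.34 ± 0.68 (adjusted p = 0.319). Lipid-associated macrophage genes had a median of 0.57, 10 of 17 separated the groups with HF above, and Mmp12 alone passed. Atp6v0d2, a proton pump subunit of such macrophages, stood at 2.13 ± 0.43 (adjusted p = 0.0518). Resident macrophage genes had a median of 0.50 (13 of 14 higher), interferon genes of 0.54 (16 of 18), complement genes of 0.47 (17 of 20) and MHC class II genes of 0.61 (7 of 10).

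Several lists stayed near 0 as a whole. Cholesterol synthesis genes had a median of 0.11 and vitamin D genes of 0.09, with 6 of 10 vitamin D genes tested and none past the test. Clock genes had a median of -0.19 with none of 19 past the test, with Npas2 the lowest at -1.37 ± 0.37 and Dbp the highest at 1.65 ± 0.55. Rora, which had the smallest p of these genes, stood at -1.09 ± 0.23 (adjusted p = 0.06). Immediate early genes, which respond to handling, had a median of -0.11 and NRF2 targets of -0.12. In all, 44 of the 677 listed genes that were tested passed (6.5%), beside 1.17% of all genes tested, and the lists were chosen with earlier results of these data known.

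**Figure D4:**
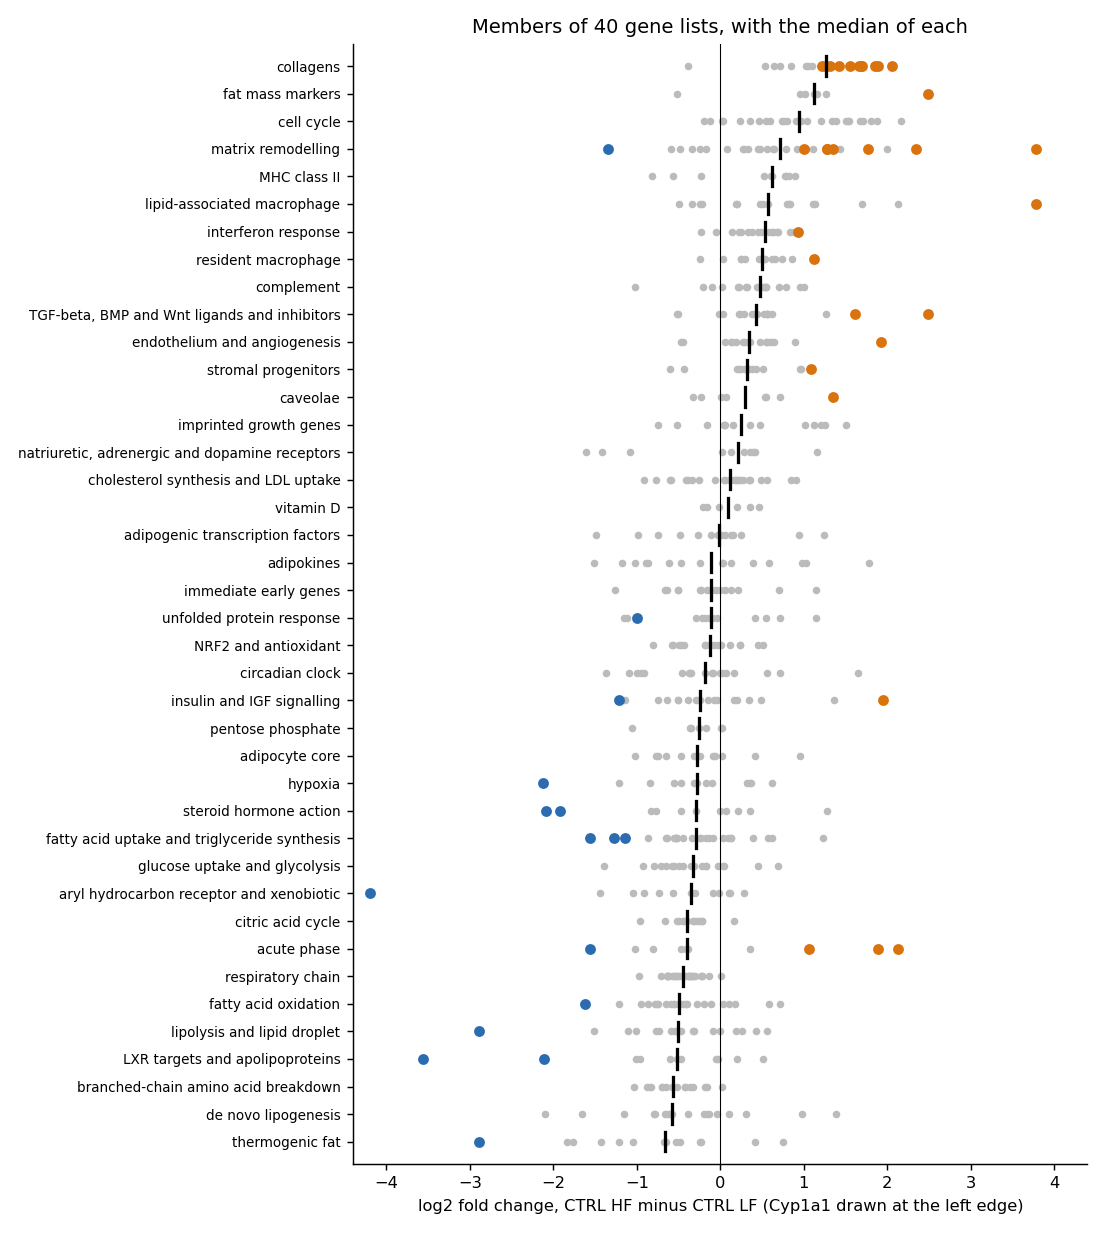
Log2 fold changes, CTRL HF minus CTRL LF, of the tested members of 40 process and cell lists, 1 point per gene, ordered by the list median (black bar). Orange members rose and blue members fell at an adjusted p under 0.05, grey members did not pass, and Cyp1a1 (-7.04) is drawn at the left edge. Collagens have the highest median, 1.27, and thermogenic genes the lowest, -0.66.

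The same diets were given to the sons of vitamin D-deficient (VDD) mothers and to the daughters of both kinds of mother, in 18 other mice. All 109 genes that rose in CTRL sons were also higher on HF in VDD sons, 61 of them at an adjusted p under 0.05, with a median log2 fold change of 1.97. Of the 72 that fell and could be tested there, all 72 were lower, 36 of them significantly. In VDD sons 3% of all tested genes rose and 2.35% fell at that threshold, and 0.0752% were called by the stricter rule. Among all genes higher in CTRL sons, 79.4% were higher in VDD sons too, and among all lower genes 76.2% were lower. In CTRL daughters 103 of 106 and 65 of 69 had the same direction, beside 70.2% of all genes higher and 68.2% of all genes lower in CTRL sons, 51 and 43 of them significantly, where 3.24% of all tested genes rose and 4.16% fell. In VDD daughters the numbers were 87 of 100 and 62 of 70, beside 66.6% and 64.8% of all genes, none significantly, and in that group no gene at all passed the test. The median of the genes that rose was 1.06 in CTRL daughters and 0.54 in VDD daughters.

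Single genes varied between the groups of offspring. Acot4 was lower on HF in all 4, with log2 fold changes of -3.35 in VDD sons, -3.25 in CTRL daughters and -1.52 in VDD daughters. Col6a2 was higher in all 4, at 2.46, 1.38 and 0.97. Fkbp5 stood at -2.49, -1.16 and -1.31 and Hsd11b1 at -2.29, -1.70 and -1.23. Cxcl13, Chil3 and Mrgprg were less alike. Cxcl13 had log2 fold changes of -2.21, 0.04 and -1.26, Chil3 of -0.94, -1.40 and 0.11, and Mrgprg of -0.12, 0.77 and -1.80. The levels of Chil3 in the LF mice of the other groups, 11.8 to 57.5 normalized reads, were under those of the CTRL LF sons, although each table was scaled on its own. Cyp1a1 in LF mice ranged from 1.28 to 59.5 in VDD sons and from 4.49 to 88.9 in CTRL daughters, against at most 0.934 and 2.25 in their HF mice. In VDD daughters it was at 25.9 to 38.6 in LF and at 0, 143 and 15.1 in HF.

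**Figure D5:**
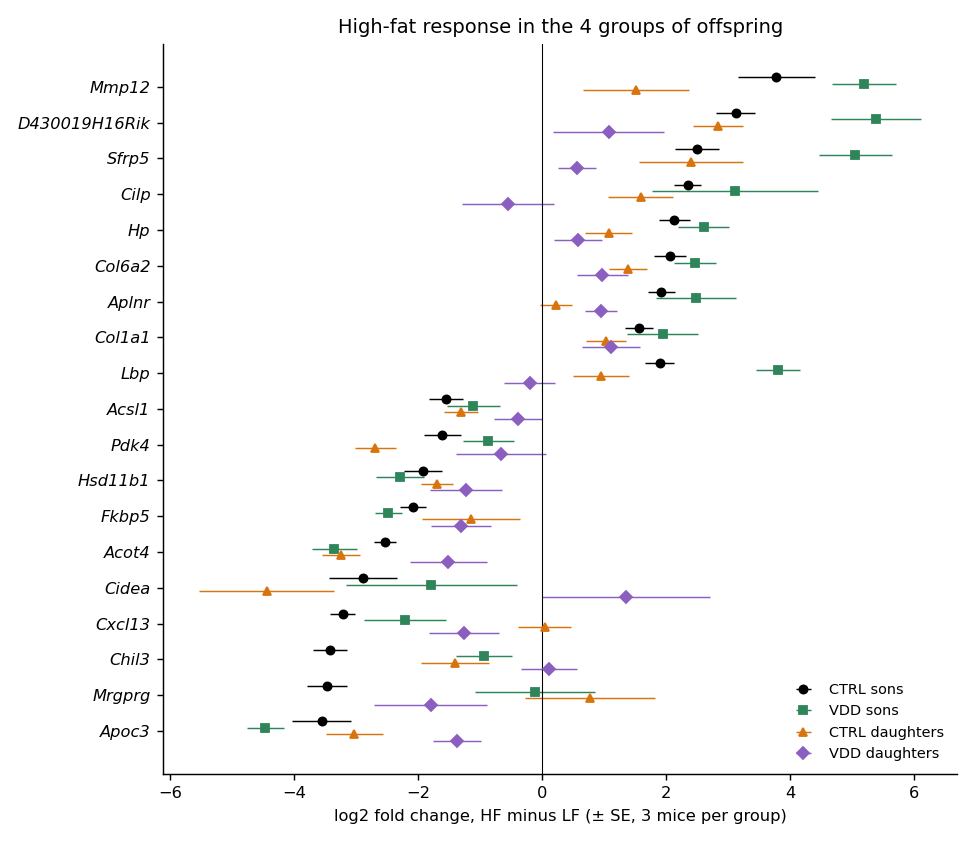
Log2 fold changes, HF minus LF, with standard errors (3 mice per group), of 19 genes in CTRL sons (black circles), VDD sons (green squares), CTRL daughters (orange triangles) and VDD daughters (purple diamonds). Mmp12 was not tested in VDD daughters. Acot4 is left of 0 and Col6a2 right of 0 in all 4 groups, and the 4 values of Mrgprg range from -3.48 to 0.77.

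The differences between groups of offspring were tested directly. With limma, the HF response differed between VDD and CTRL sons at an adjusted p under 0.05 for 0 of 16814 genes, with 652 at an unadjusted p under 0.05 (3.88%) and 657 (3.91%) in limma-voom. Between CTRL daughters and CTRL sons it differed for 0 of 17300 genes, with 1288 at an unadjusted p under 0.05 (7.45%) and 1199 (6.93%) in limma-voom. For Cxcl13 the response of daughters minus sons was 3.27 on the log2 scale (adjusted p = 0.328), and for Chil3 the response of VDD minus CTRL sons was 2.49 (adjusted p = 0.494). For Sfrp5 the latter difference was 2.55 (adjusted p = 0.959). A p that misses the threshold does not show that the responses were alike.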

How the data were processed

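RNA was extracted with TRIzol from the retroperitoneal adipose tissue of 3 mice per group, and libraries of polyadenylated transcripts were made with a stranded kit. Per the labels' processing notes and the study's methods, the authors aligned reads with STAR 2.7.0d to mm10, kept uniquely placed reads, added transcripts assembled with Cufflinks 2.2.1, counted with featureCounts 1.6.1 and normalised with DESeq2. The deposited values are log2(normalized reads + 1), scaled within each table by the authors. Undoing the log2 and the size factor gave whole reads for 100% of values within 0.02. The tables also hold the authors' fold changes and p-values, which were not used. The 4 entries whose date-like names occur more than once were dropped from the 56899. Reads from multigene families were lost where they had no unique place.

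A gene was tested if 3 or more of the 6 libraries held 10 or more normalized reads. The deposited log2 values were fitted in R 4.3.3 by limma 3.58.1, using lmFit and a trended eBayes, with 3 mice per group and no covariate. Fold changes are on the log2(normalized reads + 1) scale, which understates changes of low genes. A gene is said to rise or fall at an adjusted p under 0.05. Differences in response between groups of offspring were fitted to recovered reads of 12 libraries scaled by the median of ratios. The tables of the other groups were normalised separately and were tested only within each table. Python 3.11.15 with numpy 2.4.6, pandas 2.3.3 and matplotlib 3.10.9 prepared tables and plots.

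The 50 gene lists and the comparison were chosen with earlier results of these data known. Genes were named where the stricter rule called them, for the 12 largest increases and 12 largest decreases without overlap, for the 5 highest means in each direction, and, per list, for members at an adjusted p under 0.05 or else the 2 with the smallest p. Every other gene given, list members that did not pass included, was chosen after its values were seen. Alternatives were a pseudocount of 10, no filter, a filter at 50 reads, limma-voom, quantile normalization, robust eBayes, 1 fit over the 12 male libraries and leaving out each library. A term for, and the removal of, the libraries named renal were added after the data were seen.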

Additional observations from a re-analysis of the deposited data

How the results depend on the processing

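The 9 genes called by the stricter rule became 15 with a pseudocount of 10, 39 with no filter, 22 with at least 50 reads, 16 with quantile normalization, 29 with robust eBayes and 76 without both libraries named renal, and all 9 were among them each time. Leaving out 1 library gave 0 to 11. The 182 genes at an adjusted p under 0.05 became 99 in 1 fit over the 12 male libraries (76 of them shared) and 11 to 276 without 1 library, the lowest without CTRL LF mouse 2293 and the next, 13, without CTRL HF mouse 2128. The other settings gave 151 to 214. The causes were not tested. The genes differing in response between VDD and CTRL sons numbered 0 to 3 without 1 library (3 without VDD LF mouse 2302), and those between CTRL daughters and sons 0 to 3 (3 without CTRL HF daughter 2290, 1 without CTRL LF son 2296).

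No named gene that passed changed sign under any setting. For the settings that only left out libraries this was fixed in advance, since these genes did not overlap between the groups. Of 67 such genes, 10 passed without CTRL LF mouse 2293, 11 without CTRL HF mouse 2128, 27 without CTRL HF mouse 2131 and at most 63 without any other mouse, while limma-voom kept 62, the fit over 12 males 32 and the removal of both libraries named renal 46. Among 48 list medians, those of skeletal muscle, nerve, mesothelium and adrenal markers changed sign without the libraries named renal; skeletal muscle went from -0.88 to 1.15. Quantile normalization moved the adipokine median from -0.11 to 0.22. No paired analysis was possible, because each mouse ate only 1 of the diets and no source used here gives the litter. The columns carry mouse numbers and not the replicate numbers of the labels, so they were matched to groups only. With 3 mice per group, genes with few reads or wide spread, such as Mmp12 or the cell cycle genes, are weakly resolved.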
